A study of Mus musculus with 82 samples.

Results

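The genes described here are 37 core genes of macroautophagy, the process in which a cell encloses part of its contents in a double membrane and delivers it to the lysosome. They were taken by name from a fixed list, and all 37 are among the 14872 gene symbols that occur in all 8 deposited count tables. They belong to 3 steps: 16 genes of initiation, 16 of conjugation and 5 cargo receptors. The rule that chose them uses gene names alone.

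The study sequenced the RNA of whole mouse sciatic nerve in 82 libraries, which form 22 groups. Nerves lacking Fig4 (Fig4 -/-, 3 libraries) and their Fig4 +/+ controls (3 libraries) were taken at postnatal day 12 (P12), and the same pair with 3 libraries each at P4, in a table of its own. Fig4 encodes a phosphoinositide phosphatase needed for the lipid balance of late endosomes and lysosomes. One further table holds 5 DhhCre and 5 Mitf libraries at P21, and another holds 3 Egr2Cre and 3 Mitf libraries at P12. Dhh and Egr2 are Schwann cell genes whose promoters are used to drive Cre recombinase in Schwann cells, and Mitf is a transcription factor of the family that acts on lysosomal and pigment genes. The labels do not say which of these animals carry an altered Mitf allele, so every direction is given by label. The injury table sets 4 Mitf libraries from 3 days after nerve injury against 4 uninjured Mitf libraries. A time course holds wild type and Mutant nerves at 3, 7 and 14 days after injury, with 3 libraries in each of its 6 groups, and its label does not name the mutated gene. Another table sets 3 Egr2Cre Mitf libraries against 3 Mitf libraries. The last table holds 6 Control, 6 Mitf, 5 Ndrg1 and 5 Mitf-Ndrg1 libraries, and Ndrg1 is a gene that myelinating Schwann cells need, mutated in a hereditary neuropathy. Ages are not given in the labels of the injury table, the time course, the Egr2Cre Mitf table or the table with Ndrg1. The kind of injury, the mouse strain and the driver of the Ndrg1 change are not given either. Whether the libraries of a group are separate animals is not labelled, so a p-value here reflects only their spread, which may be technical.

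Autophagy starts when the ULK1 kinase complex and a class III lipid kinase complex act on a patch of membrane, and WIPI and ATG2 proteins bring in lipid at that site. A conjugation system then attaches small ATG8 proteins, the LC3 and GABARAP families, to the growing membrane. Cargo receptors such as p62, the product of Sqstm1, bind both the cargo and the ATG8 proteins and are themselves degraded with it. Schwann cells use this pathway to break down their own myelin after an axon is cut, and nerve macrophages use it as well. Messenger RNA levels, which are what was measured here, do not report how much material passes through the pathway.

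Proteins of the Mitf family bind the sequence CACGTG, so the start regions of the members were searched for it. The RefSeq promoters of build GRCm38.p6 run from 250 bases before to 50 bases after a gene's start and matched 31 of the 37 members. CACGTG reads the same on both strands. It occurred in 4 of the 31 matched members (Atg3, Atg5, Atg7 and Atg14), and in 8.09% of 27025 genes with a promoter in the same table. The longer TCACGTGA, which contains it, occurred only in Atg3 and in 1.12% of all genes. The windows of 3 members are shown because these genes of the conjugation machinery carry the motif and 2 of them, Atg5 and Atg7, moved in opposite directions in Ndrg1 nerves, although Atg7 was not called there when libraries were scaled by their size alone (-0.156, adjusted p = 0.27). Positions are counted from RefSeq's start. For Atg7 that start (114671096) lies 27999 bases inside the gene as GENCODE vM21 has it, and 0 bases of the window shown fall in a GENCODE exon of Atg7, so the window is not at the gene start whose span is given further on. The motif stands 132 bases before the start in Atg7 (window chr6:114670939-114670994), 14 bases before it in Atg5 (chr10:44268300-44268338) and 94 and 71 bases before it in Atg3 (chr16:45158710-45158788). Capitals mark CACGTG, and each window is read 5′ to 3′ on the + strand. A match is a description of the letters and not a binding site.
Atg7: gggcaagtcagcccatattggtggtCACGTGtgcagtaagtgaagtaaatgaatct
Atg5: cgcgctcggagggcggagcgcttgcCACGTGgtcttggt
Atg3: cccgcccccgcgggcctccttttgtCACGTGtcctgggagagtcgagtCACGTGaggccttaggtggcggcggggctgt

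Library depth lay between 15438783 and 34531474 estimated counts. Levels are given as CPM, counts scaled to a common library size with edgeR's TMM factors, which centre the bulk of genes. All 37 members passed the filter on low counts in every table. Between genes, only the level per kilobase of exon can be compared, and only roughly. The length used is that of all GENCODE vM21 exons of a gene merged, which can exceed that of the transcripts present. The order of the members depends on that length. In Control nerves the ATG8 protein genes and Sqstm1 stood at the top. Gabarap reached 129.7 CPM per kilobase ± 8.031 (SD, n = 6), Gabarapl1 116.5 ± 8.152, Map1lc3a 84.14 ± 5.522, Sqstm1 69.55 ± 2.345, Gabarapl2 56.86 ± 6.314 and Map1lc3b 29.61 ± 2.147. The lowest 3 on this scale were Atg2b, at 1.9 CPM per kilobase ± 0.1567, Atg4d, at 1.775 ± 0.1034, and Atg16l2, at 1.404 ± 0.2006. Gabarap and Gabarapl1 changed places in uninjured Mitf nerves, where Gabarapl1 stood at 193.0 CPM per kilobase ± 15.32 and Gabarap at 177.0 ± 7.289 (SD, n = 4). In both groups the intervals of 1 SD around these 2 means overlap. In wild type nerves 3 days after injury Gabarap, at 424.8 ± 26.84, and Sqstm1, at 212.1 ± 2.701 (SD, n = 3), led the members.

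The labels were checked on the genes they name. Fig4 averaged 22.65 CPM in Fig4 +/+ and 4.432 in Fig4 -/- at P12, and 30.32 and 4.457 at P4. Ndrg1 averaged 1965 CPM in Control, 1773 in Mitf, 180.8 in Ndrg1 and 176.8 in Mitf-Ndrg1. Mitf was 5.736 CPM in DhhCre and 19.65 in Mitf at P21, and 8.45 in Egr2Cre and 13.98 in Mitf at P12. In the table whose labels are Egr2Cre Mitf and Mitf, it was 8.065 CPM (7.022 to 9.907) in Egr2Cre Mitf and 10.97 (10.07 to 11.8) in Mitf, with no overlap. In the table with Ndrg1, Mitf averaged 18 CPM in Control and 12.25 in the group labelled Mitf, and 18.63 (14.25 to 22.88) in Ndrg1 and 15.13 (12.15 to 17.91) in Mitf-Ndrg1, which overlap. In every table with Cre in a label, Mitf thus averaged lower in the group with Cre in its label. In the table with Ndrg1 it averaged lower in the group labelled Mitf than in Control. The label alone does not say which group is altered. Schwann cell markers were present in every group, at sums over 10 genes from 857.9 CPM in the time course to 224800 CPM in Mitf nerves at P12. None of these 10 markers was at 0 in every library of a group.

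Across the 17 comparisons between groups, 33 of the 37 genes passed the test at least once, and Atg4c, Atg10, Map1lc3a and Gabarapl2 never did. Ndrg1 against Control alone called 60.5% of all genes. The share of all genes that passed at least once was not counted, so the 33 are not read as particular to these genes. The test was edgeR's quasi-likelihood test, two-sided, and a gene is said to have risen or fallen where its p, adjusted by Benjamini-Hochberg over all genes of the comparison, was under 0.05. Changes are on the log2 scale and positive where the group named first is higher, each with its standard error (SE). The receptors Nbr1, Optn, Calcoco1 and Tax1bp1 were lower in every comparison in which they passed. Gabarap, Atg5 and Atg12 were higher in every comparison in which they passed, 3 for each gene. Several comparisons share libraries, so these tallies are not independent.

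**Figure D1:**
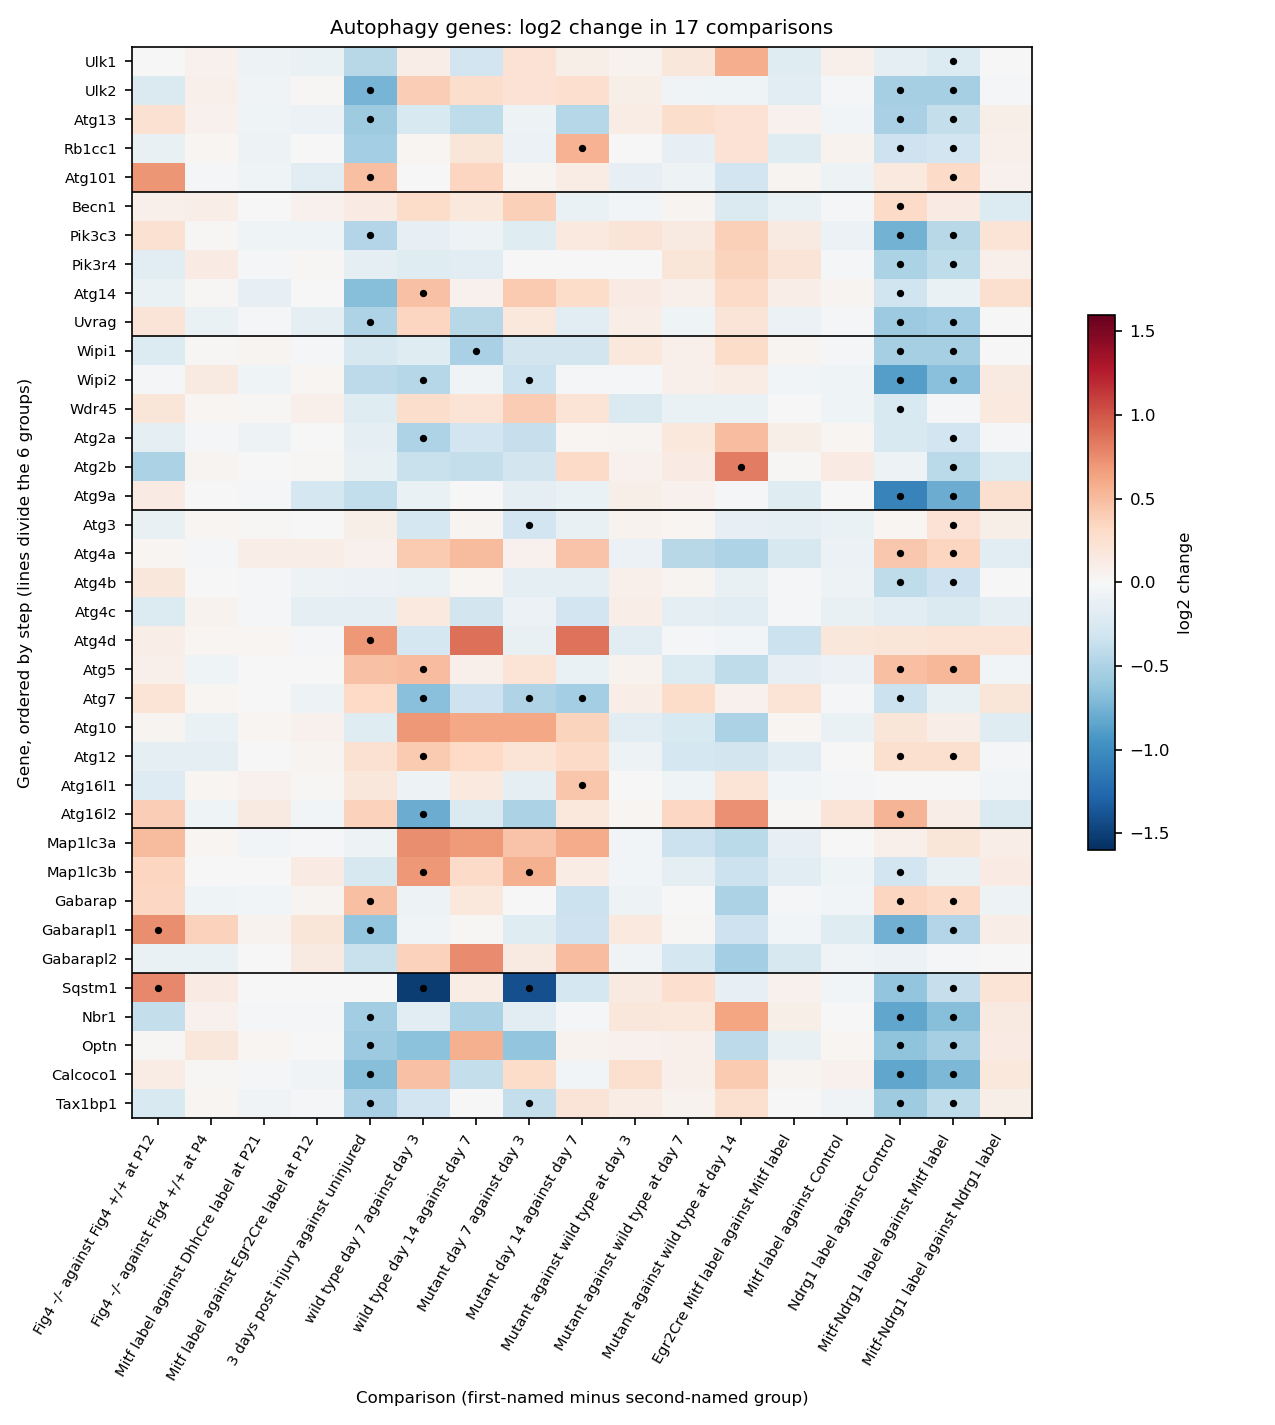
Log2 change of each of the 37 genes (rows, ordered by step, lines dividing the 6 groups of genes) in each of the 17 comparisons (columns); a dot marks an adjusted p under 0.05. Dots crowd the columns of Ndrg1 against Control (26 genes) and Mitf-Ndrg1 against Mitf (25 genes), where the 5 receptors are all lower, and 8 columns hold no dot.

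In Fig4 -/- nerves at P12, 2 of the 37 genes rose and none fell: Sqstm1, the receptor for ubiquitinated cargo, and Gabarapl1, an ATG8 protein of the GABARAP family. That is 5.41% of the members, and 3.03% of all 14338 genes passed in this comparison, 1.87% higher and 1.16% lower. Sqstm1 (chr11:50199366-50210827 in mm10, - strand) stood at 200.1, 251.2 and 187.3 CPM in Fig4 -/- and at 132.1, 127.7 and 114.2 in Fig4 +/+. Its change was 0.77 (SE 0.136, edgeR adjusted p = 0.0111). Every knockout library lay above every control library. Gabarapl1 (chr6:129533160-129542346, + strand) stood at 267.7, 295.7 and 219.4 CPM against 170.3, 149.2 and 149.4, a change of 0.74 (SE 0.134, edgeR adjusted p = 0.0125). These groups did not overlap either.

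The other ATG8 genes did not pass at P12. Gabarap changed by 0.33 (SE 0.113, adjusted p = 0.147), Map1lc3a by 0.50 (SE 0.192, adjusted p = 0.201) and Map1lc3b by 0.34 (SE 0.133, adjusted p = 0.208), all 3 positive. Nbr1, a receptor that works beside p62, had the smallest p among the members that did not pass, with 115.5, 112.6 and 133 CPM in Fig4 -/- against 164.6, 156.8 and 148.8 and a change of -0.38 (SE 0.118, adjusted p = 0.116). Of the 37 members, 7 had an unadjusted p under 0.05, 18.9% beside 17.2% of all genes. The 16 genes of initiation gave no call. The median change over the 37 was 0.05, beside 6.22e-05 over all genes.

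**Figure D2:**
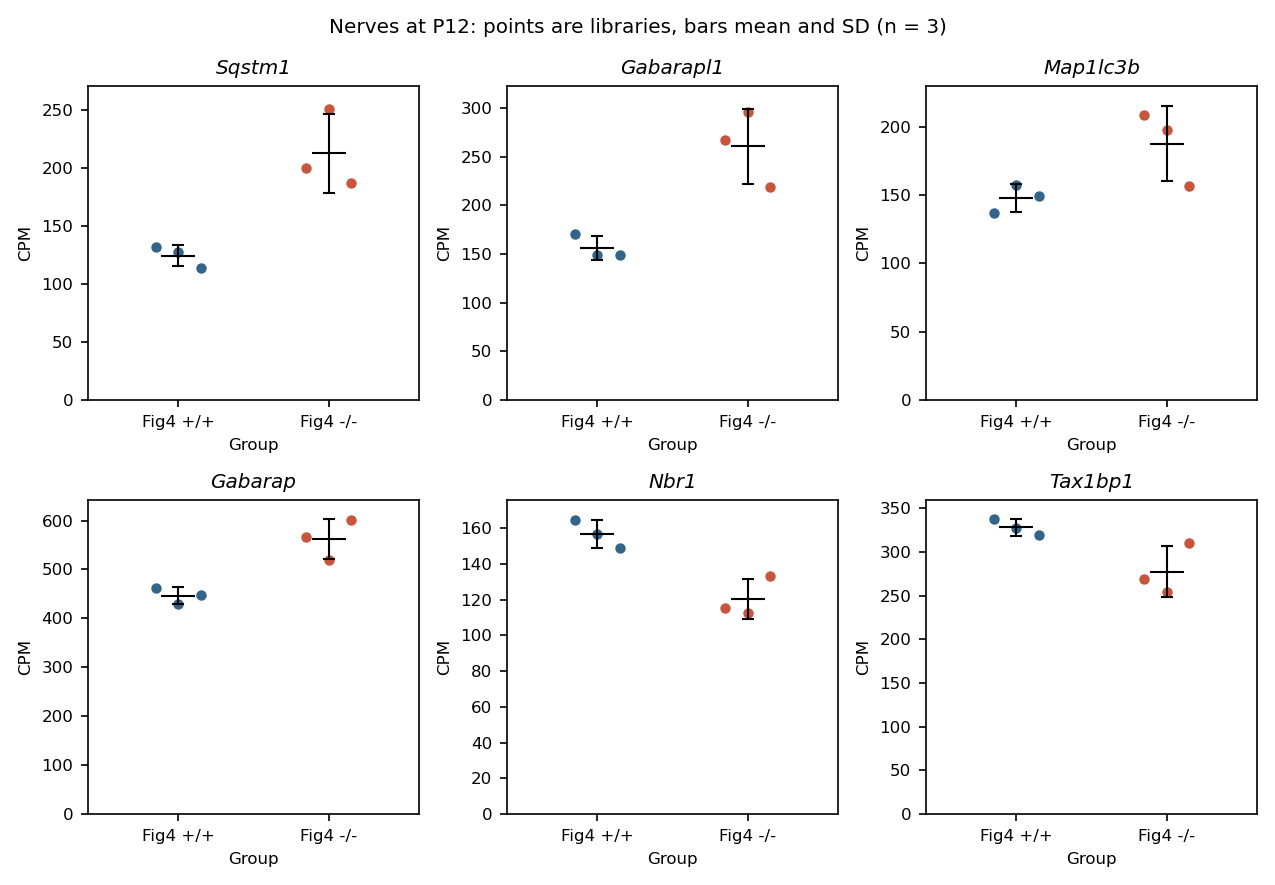
CPM of 6 members (TMM-scaled, linear axes from 0) in each Fig4 +/+ and Fig4 -/- library at P12; points are libraries and bars give the mean ± SD of 3. The knockout points of Sqstm1 and Gabarapl1 all lie above the control points, and those of Nbr1 all lie below.

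Cell type markers moved with genotype in the same libraries. Of 12 macrophage markers 8 rose, with sums of 805.8 to 1044 CPM in Fig4 -/- against 486.8 to 593.7, and the summed Schwann cell and myelin markers were 90360 to 111800 CPM against 117700 to 168300. In whole nerve, fewer cells of a type and less RNA per cell cannot be told apart. The part of these markers in the change of Sqstm1 and Gabarapl1 was not tested. The summed skeletal muscle markers separated the genotypes completely, at 5.749 to 6.386 CPM against 15.69 to 115, so muscle content and genotype cannot be told apart. With those markers as a covariate no member passed, and without Fig4 -/- replicate 2 or Fig4 +/+ replicate 2 the count was also 0.

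From the 53 tested genes of 3 further autophagy lists, 1 rose at P12: Phb2, which encodes an inner mitochondrial membrane protein that acts as a mitophagy receptor, by 0.56 (SE 0.136, edgeR adjusted p = 0.0487). These lists hold upstream regulators (20 tested), further selective receptors and adaptors (16) and genes of fusion with the lysosome (17).

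Among the P4 libraries, Fig4 -/- replicate 3 and Fig4 +/+ replicate 1 stood apart from the other 4. Their chi-square per degree of freedom against a library of their own group was 178 to 314.5, beside 12.43 and 17.01 for the remaining pair of each genotype. Their summed Schwann cell and myelin markers were 70580 and 44990 CPM against 120500 to 139200, and their summed skeletal muscle markers 11790 and 14420 against 156.3 to 2114. Among members, Map1lc3a stood at 151.8 and 149.8 CPM in these 2 and at 68.03 to 76.66 in the others, and Gabarapl2 at 118.6 and 132.9 against 69.03 to 79.34.

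At P4 no member passed edgeR's test, 1 had an unadjusted p under 0.05 and DESeq2 called 0. Over all 14888 genes 0.00672% passed, and 0.846% had an unadjusted p under 0.05, beside 2.7% of the members. The 2 members with the smallest p were Gabarapl1 and Wipi2. Gabarapl1 stood at 109.3, 101.7 and 114 CPM in Fig4 -/- and 83.68, 86.99 and 82.01 in Fig4 +/+, with no overlap and a change of 0.36 (SE 0.108, unadjusted p = 0.0147, adjusted p = 1). Wipi2, a reader of the lipid made at the initiation site, stood at 73.28, 71.79 and 69.95 CPM against 57.9, 69.37 and 67.98, a change of 0.14 (SE 0.116). Sqstm1 changed by 0.13 (SE 0.121). Without both libraries that stood apart, edgeR again called 0 members, 1 had an unadjusted p under 0.05, and Gabarapl1 changed by 0.319 (unadjusted p = 0.00269, adjusted p = 0.49). The ages are in separate tables, and whether the change at P12 differs from that at P4 was not tested.

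Comparisons between Cre and Mitf labels gave no call among the members. At P21, Mitf against DhhCre, edgeR called 0 of 37, 0 had an unadjusted p under 0.05 and DESeq2 called 0, beside 0.0143% of all genes called. All 37 changes lay between -0.13 and 0.144 with no SE above 0.1713. The smallest p belonged to Pik3c3, the catalytic subunit of the class III lipid kinase, at -0.07 (SE 0.059), and Atg14, the subunit that takes that kinase to autophagy, at -0.13 (SE 0.107).

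At P12, Mitf against Egr2Cre, the counts were again 0 by edgeR, 0 at an unadjusted p under 0.05 and 0 by DESeq2, beside 0.0139% of all genes. Gabarapl1 stood at 129.9, 122.8 and 142.8 CPM in Mitf and 119, 120.7 and 107.2 in Egr2Cre, a change of 0.19 (SE 0.105), and Atg9a, a membrane protein that carries lipid, changed by -0.28 (SE 0.184). Egr2Cre Mitf against Mitf, in a table whose labels give no age, had 0 calls by all 3 counts and 0% of all genes called. There Atg4d changed by -0.35 (SE 0.165) and Atg4a, another protease of the ATG8 proteins, by -0.26 (SE 0.126).

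In the table with Ndrg1, Mitf against Control gave 0 members by edgeR, beside 0.00629% of all genes, and 0 by DESeq2. An unadjusted p under 0.05 was found for 2 members, 5.41% beside 6.25% of all genes. Gabarapl1 ranged from 179.4 to 225.8 CPM (median 206.3) in Mitf and from 221 to 265.7 (median 231.9) in Control, which overlap, with a change of -0.19 (SE 0.066, adjusted p = 0.666). Atg16l2 changed by 0.21 (SE 0.092). The changes of all 37 lay between -0.1879 and 0.2082.

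At 3 days after injury, 12 of the 37 genes passed in Mitf nerves, 3 higher and 9 lower, 32.4% of the members beside 22.1% of all 15245 genes. The cargo receptors fell together: 4 of 5 were lower, and the fifth, Sqstm1, did not pass. Initiation gave 1 higher and 4 lower of 16, and conjugation 2 higher and 1 lower of 16. Over all genes 11.7% rose and 10.4% fell, and the median change was -0.19 over the 37 members beside 0.03 over all genes. In none of the 12 did the values of injured and uninjured nerves overlap. These 12 had been picked by the test. The share of all genes without overlap was not counted, here or in the other comparisons.

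Among initiation genes, Ulk2, one of the paired kinases that start autophagy (chr11:61775649-61855073, - strand), stood at 62.77, 66.54, 67.89 and 73.92 CPM after injury and 109.6, 128.5, 102.2 and 114.7 without. Its change was -0.75 (SE 0.112, edgeR adjusted p = 0.00326), the smallest p of the members here. Atg13, the adaptor of that kinase complex, stood at 32.4, 26.46, 32.14 and 29.85 CPM against 43.09, 40.37, 43.68 and 51.78, a change of -0.57 (SE 0.125, adjusted p = 0.012). Both genes were lower in every injured library. Pik3c3, at -0.47, and Uvrag, at -0.49, the latter a subunit of the lipid kinase, fell as well, and the small adaptor Atg101 rose by 0.49. Ulk1 changed by -0.44 (SE 0.184) and did not pass.

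In conjugation the ATG8 genes split. Gabarap (chr11:69991143-69994951) rose, from 329.9, 336.1, 306.5 and 332.7 CPM to 425.7, 523.8, 420.5 and 445.9, a change of 0.48 (SE 0.129, edgeR adjusted p = 0.0257). Its paralog Gabarapl1 fell, from 408.8, 413.6, 346 and 385.8 CPM to 230.2, 225.8, 279.6 and 279.5, a change of -0.61 (SE 0.135, adjusted p = 0.012). For both genes every injured library lay outside the range of the uninjured ones, on opposite sides. Map1lc3b changed by -0.26 (SE 0.118, adjusted p = 0.149). Of the 11 genes of the conjugation machinery proper, the protease gene Atg4d alone passed, higher by 0.70 (SE 0.194, adjusted p = 0.0291). With the replicate number as a block none of the 3 rises of this comparison passed: Gabarap changed by 0.472 (adjusted p = 0.0522), Atg101 by 0.49 (adjusted p = 0.0598) and Atg4d by 0.688 (adjusted p = 0.0579). No member was called higher without uninjured replicate 1, 2 or 3 or without injured replicate 4.

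Of the receptors, Calcoco1, which serves turnover of the endoplasmic reticulum (chr15:102706777-102722178), stood at 59.37, 39.64, 57.4 and 49.08 CPM after injury against 75.45, 85.55, 88.48 and 80.64, a change of -0.68 (SE 0.14, edgeR adjusted p = 0.00939). Nbr1 (chr11:101552149-101581951) stood at 128.7, 103.7, 124.1 and 108.5 CPM against 160.5, 178.1, 171.2 and 171.7, a change of -0.55 (SE 0.115, adjusted p = 0.00987). Tax1bp1, a receptor with a ubiquitin-binding end, stood at 140.3, 156.3, 141.2 and 169.8 CPM against 225.2, 223.7, 228.5 and 192.2, a change of -0.52 (SE 0.121, adjusted p = 0.015). Each of these was lower in all 4 injured nerves, and Optn, which encodes the receptor optineurin, fell by 0.59 on the log2 scale (adjusted p = 0.0339). Sqstm1 stood at 338.7, 307, 284.6 and 334.5 CPM after injury and at 305.2, 321.5, 316.1 and 317.6 without, overlapping, with a change of 0.01 (SE 0.118).

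**Figure D3:**
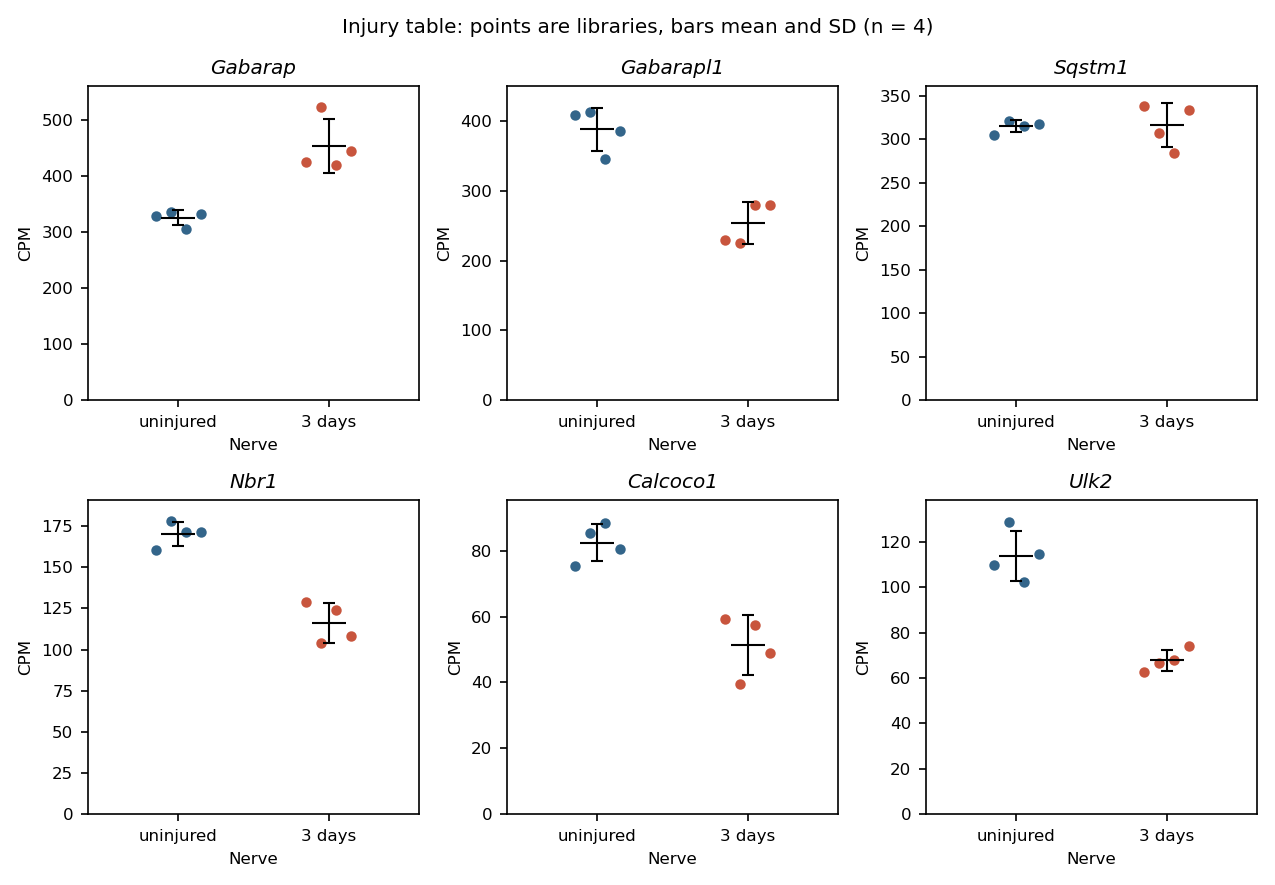
CPM of 6 members (TMM-scaled, linear axes from 0) in each uninjured Mitf library and each Mitf library 3 days after injury; points are libraries and bars give the mean ± SD of 4. Gabarap is higher after injury, Gabarapl1, Nbr1, Calcoco1 and Ulk2 are lower with no overlap, and Sqstm1 overlaps.

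Over the 53 further autophagy genes 4 rose and 14 fell, and 8 of those that fell were among the 16 further receptors and adaptors, of which 1 rose. The 5 with the smallest p were Wdfy3, a large scaffold for aggregates, at -0.87, Trp53inp2, a nuclear and autophagosomal adaptor, at 1.45, Phb2 at 0.64, Fyco1, which ties autophagosomes to microtubule motors, at -0.87, and the mitophagy receptor Bnip3l at -0.67. Schwann cell markers moved in the same libraries: 5 of 10 fell, with sums of 37700 to 92340 CPM after injury against 103300 to 128700. Macrophage markers gave 3 of 12 higher, with sums of 992.3 to 2668 CPM against 554.2 to 1322. Perineurial markers gave 2 of 4 lower, with sums of 241.4 to 486.2 CPM against 659.1 to 845.7, and neutrophil markers 2 of 3 higher, with sums of 7.39 to 25.95 against 1.57 to 3.863. The part of these markers in the members' changes was not tested. The count of 12 became 7 (0 higher and 7 lower) with the replicate number as a block and 1 with muscle markers as a covariate. Skeletal muscle sums were 4.497 to 25.13 CPM after injury against 22.11 to 2103, with little overlap. A fit with that covariate therefore cannot well separate muscle content from injury. The count was 6 or 7 without any one of the 4 uninjured libraries or without injured replicate 2.

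Between day 3 and day 7 after injury, Sqstm1 showed the largest fall of any member, in wild type and in Mutant nerves. In wild type nerves it stood at 705.2, 707.8 and 722.1 CPM at day 3 and at 234.3, 214.8 and 295 at day 7, a change of -1.52 (SE 0.19, edgeR adjusted p = 2.71e-05). In Mutant nerves it stood at 736.2, 784.1 and 847.6 CPM and then at 241.4, 370.8 and 284.4, a change of -1.40 (SE 0.189, adjusted p = 8.07e-05). The days were far apart in both. At day 14 it stood at 210.9, 300.7 and 298.3 CPM in wild type and 225.9, 287.6 and 223.6 in Mutant, which overlaps day 7 in each. The difference between the genotypes in the step from day 3 to day 7 was 0.12 (SE 0.263, adjusted p = 0.989).

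In wild type, 9 of 37 members passed between day 3 and day 7 (4 higher and 5 lower, 24.3% of the members beside 39.1% of all 15852 genes, 19.4% higher and 19.6% lower). In Mutant, 6 passed (1 higher and 5 lower, 16.2% beside 33.4%, 16.2% higher and 17.2% lower). With these groups fitted without the rest of the time course, the counts were 13 (8 higher and 5 lower) in wild type and 18 (10 higher and 8 lower) in Mutant. These 2 comparisons share no library, and 4 members passed in both with the same sign: Sqstm1, Atg7, Wipi2 and Map1lc3b, 44.4% of the wild type calls and 66.7% of the Mutant calls. Over all genes the shared calls made up 66.1% and 77.2%. The members' median changes were -0.08 and -0.09.

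Initiation gave 1 higher and 2 lower of 16 in wild type. Wipi2 (chr5:142627698-142670588) stood at 50.13, 55.32 and 55.22 CPM at day 3 and 39.43, 35.32 and 42.24 at day 7, a change of -0.46 (SE 0.109, edgeR adjusted p = 0.00399). Its Mutant values were 48.33, 53.35 and 55.49 CPM and then 42.43, 42.91 and 38.06, a change of -0.35 (SE 0.109, adjusted p = 0.0226). Wipi2 was lower in every day 7 library of either genotype. In wild type Atg14 rose by 0.47 (adjusted p = 0.0429) and the lipid transfer gene Atg2a fell by 0.49 on the log2 scale (adjusted p = 0.0485).

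Conjugation genes moved both ways, with 3 higher and 2 lower of 16 in wild type. Atg7, the enzyme that activates ATG12 and the ATG8 proteins (chr6:114643097-114860614), went from 30.73, 30.66 and 29.82 CPM to 16.5, 19.58 and 21.09, a change of -0.67 (SE 0.154, edgeR adjusted p = 0.00301), and in Mutant from 34.64, 31.95 and 31.33 to 19.2, 25.29 and 25.66, a change of -0.48 (SE 0.153, adjusted p = 0.0246). Map1lc3b, which encodes LC3B (chr8:121590361-121598760), went the other way, from 197.4, 203.5 and 203.9 CPM to 383, 265.5 and 327, a change of 0.69 (SE 0.169, adjusted p = 0.00468). In Mutant it went from 211.4, 189.9 and 186 CPM to 276.4, 305.1 and 291, a change of 0.57 (SE 0.168, adjusted p = 0.0166). The fall of Atg7 and the rise of Map1lc3b separated day 3 from day 7 in both genotypes. Atg12, the small protein that Atg7 activates, stood at 36.41, 38.37 and 35.76 CPM at day 3 and 54.26, 45.18 and 48.87 at day 7 in wild type, a change of 0.42 (SE 0.126, adjusted p = 0.0149). Its partner Atg5 (chr10:44268358-44364291) rose by 0.49 (adjusted p = 0.0169), and Atg16l2 fell by 0.80 on the log2 scale (SE 0.233, adjusted p = 0.0138). Among Mutant nerves Atg3, the last enzyme of ATG8 conjugation, fell by 0.31 on the log2 scale (SE 0.114, adjusted p = 0.0465). That call was lost under RLE scaling, another scaling by the bulk of genes (adjusted p = 0.0501), and with the replicate block (adjusted p = 0.0654).

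Receptors other than Sqstm1 did not pass in wild type, and Tax1bp1 fell in Mutant, from 122.7, 132.8 and 131 CPM to 102.3, 100.3 and 95.16, a change of -0.38 (SE 0.117, edgeR adjusted p = 0.0222). Its wild type change was -0.31 (SE 0.117, adjusted p = 0.0501). No interaction with genotype passed for any member between day 3 and day 7: edgeR called 0 of 37 and 0% of all genes, 0 members had an unadjusted p under 0.05 and DESeq2 called 0.

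**Figure D4:**
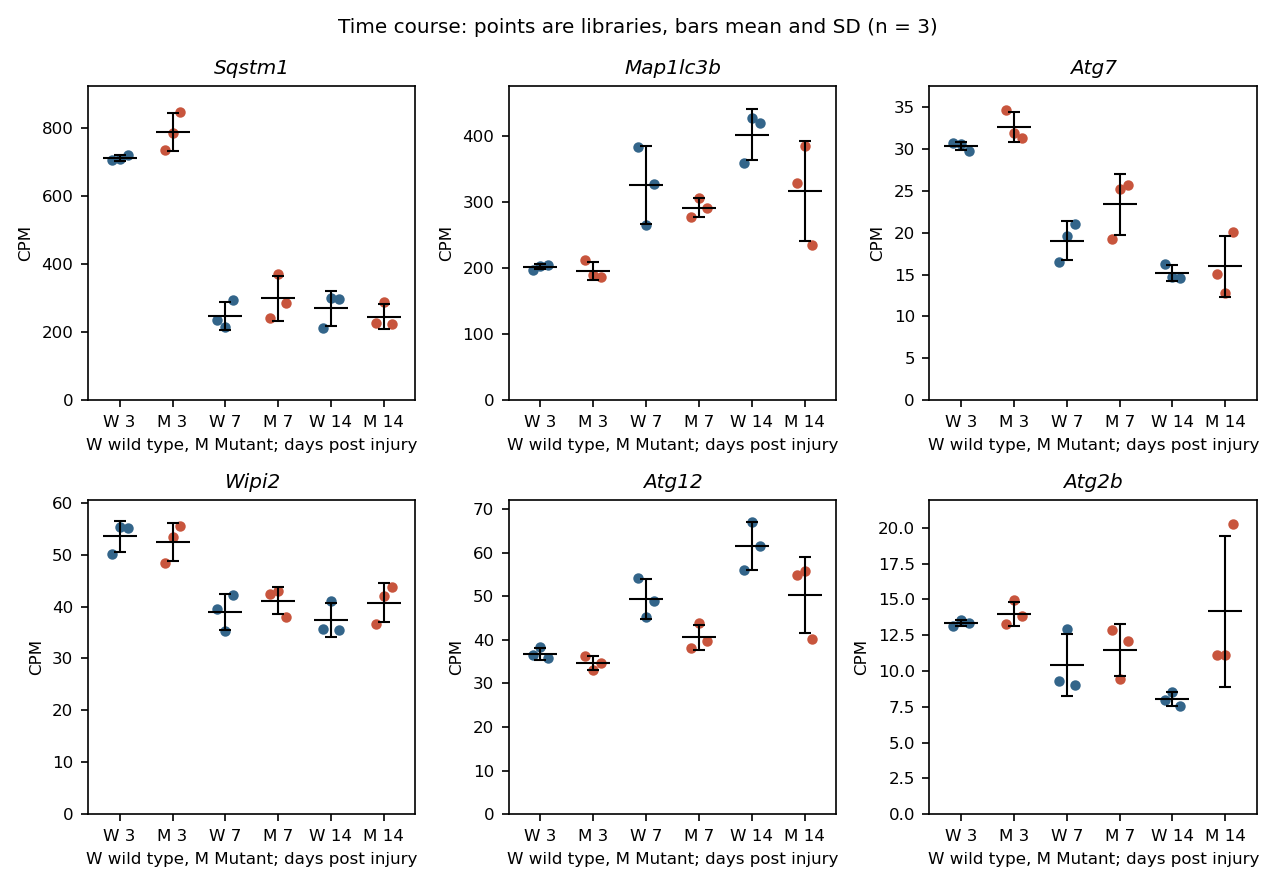
CPM of 6 members (TMM-scaled, linear axes from 0) in each wild type and Mutant library at 3, 7 and 14 days after injury; points are libraries and bars give the mean ± SD of 3. Sqstm1 drops from 705.2 CPM or more at day 3 to 370.8 or less at day 7 in both genotypes, Map1lc3b is higher from day 7 and Atg7 lower, and 1 Mutant library at day 14 stands above the other Atg2b values.

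Of the further autophagy genes, 11 rose and 14 fell in wild type between day 3 and day 7, and 6 rose and 12 fell in Mutant. Genes of fusion with the lysosome gave 1 higher and 7 lower of 17 in wild type and 0 higher and 6 lower in Mutant. The 5 with the smallest p in wild type were Trp53inp1, a stress-induced autophagy adaptor, at 1.62, Tex264, a receptor for the endoplasmic reticulum, at -1.07, Tecpr1, a tether of autophagosomes and lysosomes, at -1.52, Vps16, a subunit of the fusion machinery, at -0.70, and Ccpg1, another receptor for the endoplasmic reticulum, at 0.58. In Mutant they were Trp53inp1 at 1.17, Tex264 at -0.68, Tecpr1 at -1.15, the mitophagy kinase gene Pink1 at 1.40 and Ccpg1 at 0.52.

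The makeup of the nerve also differed between the days. Between day 3 and day 7, 5 of 6 fibroblast markers rose in each genotype, skeletal muscle markers gave 5 of 10 higher in wild type and 6 of 10 in Mutant, and Schwann cell markers gave 7 of 10 lower in wild type and 2 of 10 in Mutant. Neutrophil sums went from 40.89 to 84.15 CPM at day 3 to 10.01 to 14.53 at day 7 in wild type (3 of 5 markers fell), and erythrocyte sums from 799.1 to 2369 to 196.9 to 404.3 (2 of 4 fell). In Mutant neither list gave a call, with neutrophil sums of 18.88 to 50.11 and then 7.963 to 31.42 CPM. Mutant day 7 replicate 1 had a Schwann cell sum of 12950 CPM, against 1648 and 1316 in the other 2 libraries of its group. Muscle sums reached 1849 CPM at most on day 3, 31170 on day 7 and 141100 on day 14. In wild type they were 270.3 to 1849 CPM at day 3 and 2932 to 31170 at day 7. In Mutant they were 8.469 to 270.8 CPM and then 1215 to 2658. These days did not overlap in either genotype, so muscle content and day cannot be told apart. With muscle markers as a covariate, 5 wild type members and 3 Mutant members passed. Of the calls made without it, 6 of 9 in wild type and 5 of 6 in Mutant were lost, so some that passed were other members. The part of the other markers was not tested. Scaling by library size alone shifted the median of all genes to -0.126 in wild type and -0.125 in Mutant and gave 1 higher and 5 lower in wild type and 1 higher and 2 lower in Mutant. The calls lost were those of Atg14, Atg2a, Atg5 and Atg12 in wild type and of Wipi2, Atg7 and Tax1bp1 in Mutant. Without Mutant day 3 replicate 2, Mutant day 3 replicate 3 or Mutant day 7 replicate 3 the Mutant count of 6 was 1, 2 and 3.

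From day 7 to day 14 few members passed the test. The changes of the 37 lay between -0.5137 and 0.8875 in wild type, with SE up to 0.3899. In Mutant they lay between -0.5473 and 0.8671, with SE up to 0.389. An unadjusted p under 0.05 was found for 24.3% of the members in wild type, beside 32.2% of all genes. In Mutant these shares were 18.9% and 34%. In wild type 1 of 37 passed, beside 7.41% of all genes (2.52% higher and 4.9% lower): Wipi1, a lipid reader related to Wipi2, at 28.68, 37.7 and 32.85 CPM on day 14 against 46.66, 49.32 and 45.62, a change of -0.51 (SE 0.149, edgeR adjusted p = 0.049). Leaving out any library of those 2 groups brought that count to 0. In Mutant 3 passed, beside 17.7% of all genes (8.55% higher and 9.16% lower). Rb1cc1, the scaffold of the ULK1 complex, rose by 0.55 (SE 0.144, adjusted p = 0.0177), with 31.16, 31.95 and 38.53 CPM against 21.43, 24.09 and 23.79. Atg16l1, which places conjugation on the membrane, rose by 0.44 (SE 0.111, adjusted p = 0.015), with 23.18, 23.33 and 18.83 CPM against 15.76, 15.63 and 16.73. Atg7 fell further, by 0.55 on the log2 scale (SE 0.155, adjusted p = 0.0255), to 15.04, 12.82 and 20.05 CPM, of which the last overlaps day 7. The interaction with genotype called 0 members by edgeR, beside 0.0946% of all genes, and 0 by DESeq2. An unadjusted p under 0.05 was found for 1 member, 2.7% beside 14.8% of all genes. The Mutant count was 1 without Mutant day 7 replicate 1 or 2 or Mutant day 14 replicate 2, and 14 (9 higher and 5 lower) without Mutant day 14 replicate 3.

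Between genotypes at the same day, members gave almost no call. At day 3 edgeR called 0 members, 0 had an unadjusted p under 0.05 and DESeq2 called 0, beside 0% of all genes. The smallest p values belonged to Wdr45, a lipid reader, at -0.23 (SE 0.155), and Gabarapl1, at 0.15 (SE 0.123). At day 7 edgeR called 0 members, beside 0% of all genes, and DESeq2 called 0. An unadjusted p under 0.05 was found for 1 member, 2.7% beside 13.2% of all genes. There Atg12 changed by -0.29 (SE 0.126, adjusted p = 0.36) and Atg7 by 0.30 (SE 0.154).

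At day 14 one member rose in Mutant nerves, 2.7% of the 37 beside 8.29% of all genes (7.05% higher and 1.24% lower). It was Atg2b, which encodes a lipid transfer protein of the growing membrane (chr12:105616136-105685211), at 11.13, 11.09 and 20.27 CPM in Mutant and 7.99, 8.557 and 7.561 in wild type. Its change was 0.82 (SE 0.214, edgeR adjusted p = 0.0314), and the groups did not overlap. Mutant replicate 3 stood far above the other 2 Mutant libraries. Without it the change was 0.479 and adjusted p = 0.197, and with the replicate block it was 0.805 and adjusted p = 0.0544. Muscle-rich libraries, those with muscle markers above 50000 CPM in sum, were 2 wild type and 1 Mutant at this day, and without them adjusted p = 0.166. Adipocyte markers summed to 961.8 to 3430 CPM in Mutant against 5386 to 6128 in wild type (1 of 6 fell), and mast cell markers to 30.43 to 43.82 against 17.84 to 25.52 (0 of 4 called). Their part was not tested. DESeq2 called 6 members (4 higher and 2 lower). The edgeR count was 0 without any one of the 3 wild type libraries, 3 without Mutant replicate 1, 17 (8 higher and 9 lower) without Mutant replicate 2, the muscle-rich one, and 0 without Mutant replicate 3. Of the further autophagy genes 6 rose and 0 fell, led by the upstream regulators Tsc1, at 1.20, Ambra1, at 1.23, and Ulk3, at 1.14, and then Wdfy3, at 1.06, and Tecpr1, at 0.75.

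In nerves labelled Ndrg1, all 5 cargo receptors and most initiation genes were lower than in Control, while the conjugation genes moved both ways. Of the 37 members 6 rose and 20 fell, 70.3% beside 60.5% of all 15910 genes. Initiation gave 1 higher and 11 lower of 16, conjugation 5 higher and 4 lower of 16, and receptors 0 higher and 5 lower of 5. Over all genes 30.8% rose and 29.7% fell. The median change was -0.31 over the members and 0.02 over all genes.

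Wipi2 had the smallest p. It ranged from 60.96 to 71.54 CPM (median 64.17) in 5 Ndrg1 nerves and from 115.9 to 125.3 (median 121.2) in 6 Control nerves, a change of -0.88 (SE 0.0631, edgeR adjusted p = 2.23e-11). Pik3c3 ranged from 18.23 to 21.22 CPM (median 19.82) against 32.06 to 34.83 (median 33.94), a change of -0.76 (SE 0.0662, adjusted p = 6.48e-10). Neither gene's groups came near each other. Atg9a, whose product supplies membrane (chr1:75180860-75192196), had the largest fall, from a median of 50.61 CPM to 26.04, a change of -1.06 (SE 0.151, adjusted p = 1.75e-06). Ulk2 (-0.53), Atg13 (-0.52) and Rb1cc1 (-0.33) of the ULK1 complex fell, and Ulk1 changed by -0.14 (SE 0.089, adjusted p = 0.174). In the lipid kinase complex Uvrag (-0.58), Pik3r4 (-0.51) and Atg14 (-0.31) fell and Becn1 rose by 0.31.

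Receptor levels in Ndrg1 nerves did not overlap those of Control for any of the 5. All 5 had passed the test, as had 60.5% of all genes, and the share of all genes without overlap was not counted. Calcoco1 ranged from 33.76 to 43.32 CPM (median 39.56) against 66.49 to 73.2 (median 69.76), a change of -0.83 (SE 0.076, edgeR adjusted p = 1.52e-09). Nbr1 ranged from 74.83 to 97.84 CPM (median 82.75) against 133.9 to 167.1 (median 154.7), also a change of -0.83 (SE 0.0885, adjusted p = 1.61e-08). Both were the receptors that fell most. Sqstm1 ranged from 134.1 to 158.2 CPM (median 154.4) against 222.5 to 247 (median 232.5), a change of -0.63 (SE 0.0724, adjusted p = 6.07e-08). Tax1bp1 ranged from 131.3 to 154.3 CPM (median 135.4) against 189.3 to 217.1 (median 204.6), a change of -0.56 (SE 0.0647, adjusted p = 5.77e-08). Optn fell by 0.64 on the log2 scale (SE 0.0973, adjusted p = 3.81e-06).

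Within conjugation, the GABARAP paralogs again went opposite ways. Gabarapl1 ranged from 126.9 to 146.5 CPM (median 137.7) against 221 to 265.7 (median 231.9), a change of -0.76 (SE 0.0706, edgeR adjusted p = 1.7e-09). Gabarap ranged from 279.7 to 326.2 CPM (median 305.9) against 226.2 to 264.5 (median 236.1), a change of 0.34 (SE 0.0699, adjusted p = 1.61e-04). Map1lc3b ranged from 159.6 to 191.2 CPM (median 188.8) against 208.9 to 251.5 (median 217.7), a change of -0.31 (SE 0.075, adjusted p = 8.96e-04). In the conjugation machinery Atg5 (0.48), Atg16l2 (0.54), Atg4a (0.44) and Atg12 (0.25) rose, and Atg4b (-0.40) and Atg7 (-0.35) fell. The windows of Atg5 and Atg7 shown above both hold CACGTG, and Atg3, with the motif at both sites shown, changed by 0.03 (SE 0.0606). Atg14, the other member with the motif, fell by 0.31 on the log2 scale. Whether the motif bears on these changes was not tested.

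**Figure D5:**
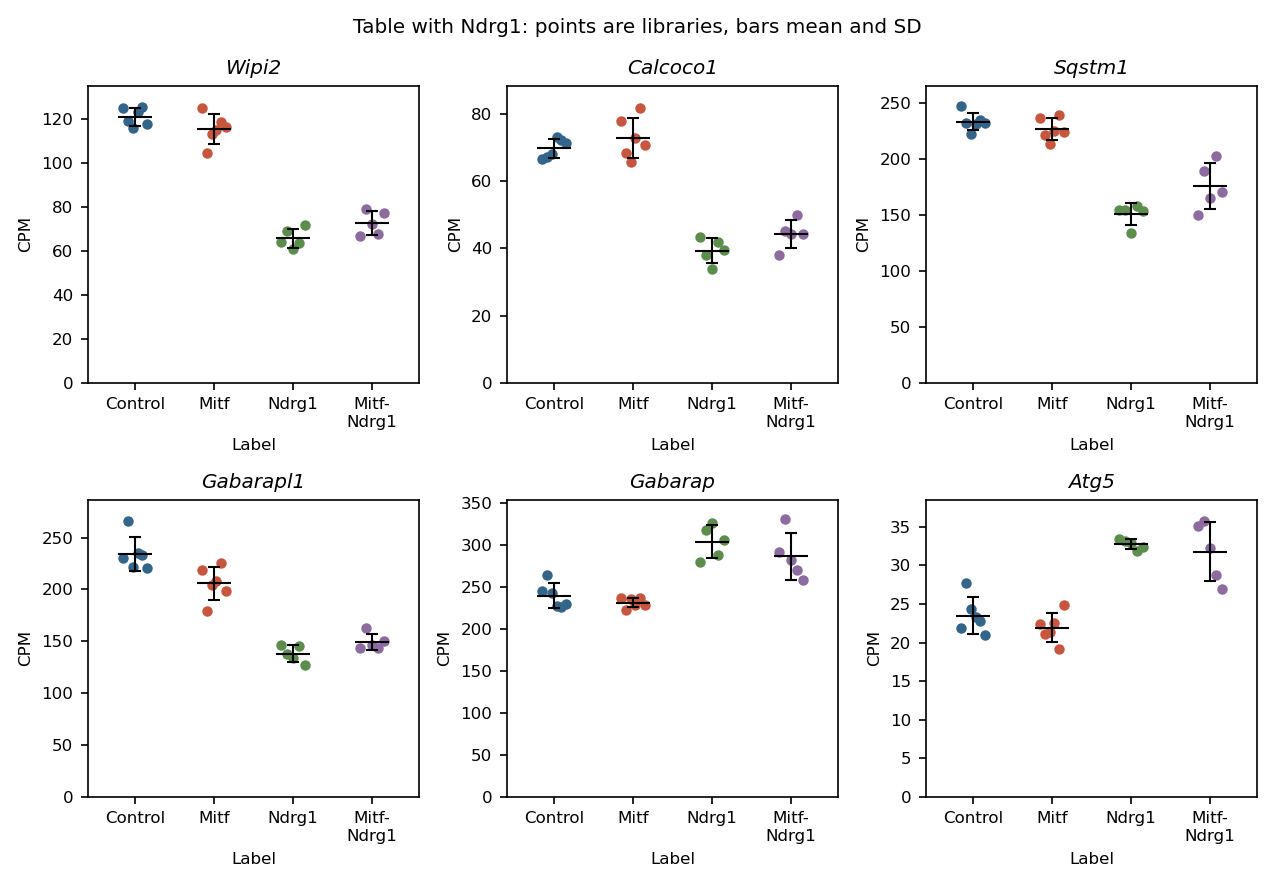
CPM of 6 members (TMM-scaled, linear axes from 0) in each Control, Mitf, Ndrg1 and Mitf-Ndrg1 library; points are libraries and bars give the mean ± SD of 6, 6, 5 and 5. Wipi2, Calcoco1, Sqstm1 and Gabarapl1 sit lower in both groups with Ndrg1 in the label, and the means of Gabarap and Atg5 sit higher.

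A second pair of groups, Mitf-Ndrg1 against Mitf, shares no library with the first and gave 6 higher and 19 lower, 67.6% beside 57.6% of all genes. The members' median change was -0.23, beside 0.01 over all genes. Initiation gave 1 higher and 12 lower, conjugation 5 higher and 2 lower, and receptors 0 higher and 5 lower. Called in both pairs with the same sign were 20 members, 76.9% of the first list and 80% of the second, and none had opposite signs. Over all genes the shared calls made up 79.7% and 83.7%, so the members' overlap was close to that of all genes.

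In this pair Wipi2 ranged from 66.71 to 78.95 CPM (median 72.09) against 104.3 to 124.8 (median 115.7), a change of -0.67 (SE 0.0627, edgeR adjusted p = 2.65e-09). Calcoco1 ranged from 37.88 to 49.85 CPM (median 44.19) against 65.6 to 81.72 (median 71.84), a change of -0.72 (SE 0.0756, adjusted p = 1.76e-08). Nbr1 ranged from 82.36 to 107.6 CPM (median 98.66) against 135.6 to 164.3 (median 155.3), a change of -0.68 (SE 0.088, adjusted p = 4.82e-07). These 3 had the smallest p, with no overlap between groups. The largest fall was again that of Atg9a, from a median of 51.64 CPM (43.56 to 57.74) to 27.59 (21.05 to 37.08), a change of -0.80 (SE 0.149, adjusted p = 7.78e-05). Pik3c3 ranged from 21.05 to 25.9 CPM (median 22.98) against 28.06 to 34.32 (median 31.95), a change of -0.45 (SE 0.0654, adjusted p = 2.67e-06). Wipi1 ranged from 54.33 to 80.09 CPM (median 64.97) against 85.93 to 101.7 (median 95.93), a change of -0.53 (SE 0.0771, adjusted p = 2.76e-06). Ulk2 ranged from 91.89 to 104.9 CPM (median 101.8) against 136.9 to 151.8 (median 143.7), a change of -0.53 (SE 0.0793, adjusted p = 3.84e-06). These 3 initiation genes did not overlap either.

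Sqstm1 in the same pair ranged from 149.9 to 202.9 CPM (median 170.6) against 213.8 to 239.2 (median 224.1), a change of -0.37 (SE 0.072, edgeR adjusted p = 1.18e-04). Gabarapl1 ranged from 143.3 to 162.5 CPM (median 145.9) against 179.4 to 225.8 (median 206.3), a change of -0.47 (SE 0.0701, adjusted p = 4.24e-06). Both were lower in every Mitf-Ndrg1 library. Ulk1 ranged from 30.14 to 37.72 CPM (median 31.13) against 35.77 to 41.73 (median 37.94), which overlap, and its change of -0.22 (SE 0.0887, adjusted p = 0.0375) became 0.0259 when libraries were scaled by their size alone. Atg5 rose by 0.54, Gabarap by 0.31, Atg4a by 0.35, Atg12 by 0.25, Atg101 by 0.31 and Atg3 by 0.23.

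Scaling mattered to the balance of these counts. Scaling by library size alone, an alternative chosen after seeing the data, moved the median of all genes to 0.202 in Ndrg1 against Control and to 0.255 in Mitf-Ndrg1 against Mitf. It gave 10 higher and 15 lower in the first pair and 13 higher and 11 lower in the second. Initiation was then 2 higher and 8 lower in the first pair and 3 higher and 6 lower in the second, conjugation 8 higher and 2 lower and 10 higher and 1 lower. Receptors stayed 0 higher and 5 lower in the first pair and were 0 higher and 4 lower in the second, where Sqstm1, at -0.123 (adjusted p = 0.189), no longer passed. The other calls lost were those of Map1lc3b (-0.125, adjusted p = 0.219), Rb1cc1 (-0.16), Atg14 (-0.129), Wdr45 (-0.0617) and Atg7 in the first pair, and of Ulk1, Atg13 (-0.132), Rb1cc1 (-0.0632), Pik3r4 (-0.155), Atg2a (-0.0581), Atg2b (-0.18) and Atg4b (-0.082) in the second. Under RLE scaling the counts per step were as in the TMM fit in both pairs.

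Cell type markers differed widely in these groups. All 10 Schwann cell and myelin markers fell in both pairs, with sums of 46510 to 59760 CPM in Ndrg1 and 41110 to 68790 in Mitf-Ndrg1, against 154200 to 183700 in Control and 144400 to 187700 in Mitf. Of 12 macrophage markers 11 rose in both pairs, with sums of 3461 to 4534 CPM in Ndrg1 and 3580 to 4912 in Mitf-Ndrg1, against 545.2 to 711.3 and 555 to 697.4. Neutrophil sums were 14.75 to 21.91 CPM in Ndrg1 and 15.75 to 20.66 in Mitf-Ndrg1, against 1.455 to 2.998 and 2.031 to 4.244, and perineurial sums 221.6 to 333.6 and 393.3 to 462.3 against 491.1 to 713.7 and 473.3 to 621.6. Endothelial markers gave 5 of 6 lower in the first pair and 4 of 6 in the second, and adipocyte markers gave 0 of 6 higher in the first pair and 6 of 6 in the second. Schwann cell and macrophage sums did not overlap between the groups of either pair, so the label and the makeup of the nerve cannot be told apart.

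Of the 53 further autophagy genes, 10 rose and 30 fell in Ndrg1 against Control and 9 rose and 28 fell in Mitf-Ndrg1 against Mitf. In the first pair the further receptors gave 2 higher and 12 lower of 16, upstream regulators 7 higher and 10 lower of 20, and fusion genes 1 higher and 8 lower of 17. The 5 with the smallest p were Trp53inp2, at 1.10 (edgeR adjusted p = 4.15e-10), Rtn3, a receptor for tubules of the endoplasmic reticulum, at -1.16 (adjusted p = 5.79e-10), Tmem41b, a lipid scramblase of the endoplasmic reticulum, at -0.81, Ccpg1, at -0.71, and Tex264, at -1.002.

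The last pair has Ndrg1 in both labels and differs in the label Mitf. In Mitf-Ndrg1 against Ndrg1 edgeR with TMM scaling called 0 members, beside 1.47% of all genes. With library size alone edgeR called 2, and DESeq2 called 2. An unadjusted p under 0.05 was found for 8 members, 21.6% of them, beside 17.6% of all genes. Atg14 ranged from 13.57 to 15.25 CPM (median 14.82) in Mitf-Ndrg1 and from 11.27 to 12.87 (median 12.05) in Ndrg1, without overlap, a change of 0.26 (SE 0.0698, adjusted p = 0.0578). Pik3c3 changed by 0.22 (SE 0.0686, adjusted p = 0.0963) and Sqstm1 by 0.22 (SE 0.0749, adjusted p = 0.128). Without Mitf-Ndrg1 replicate 1 edgeR called 2. The interaction of both labels called 0 members by edgeR, beside 0.39% of all genes, and 2 by DESeq2. An unadjusted p under 0.05 was found for 8 members, 21.6% beside 13.9% of all genes. The smallest p of the interaction belonged to Pik3c3, at 0.31 (SE 0.0923, adjusted p = 0.12), and Atg16l2, at -0.44 (SE 0.136, adjusted p = 0.134).

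Some members share exonic sequence with a gene on the other strand in GENCODE vM21, among them Sqstm1 (with Mrnip), Gabarapl1 (with 1700101I11Rik), Map1lc3b (with Zcchc14), Becn1 (with Cntd1), Atg9a (with Ankzf1) and Atg2b (with Gskip). Atg4a has a copy by name in the annotation, Atg4a-ps. Copies were sought by name alone and sequences were not compared, so whether this or other copies take reads of members is not known. The libraries were stranded, and whether the counting used the strand is not stated in the sources used here. Levels of these genes are uncertain to that extent. On the same strand, Atg9a shares exonic sequence with Gm29253 and Wdr45 with Gm45208, where the strand of a read cannot separate the genes.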

How the data were processed

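Per the labels' protocols, nerves were quick-frozen and their total RNA went into stranded mRNA libraries. The authors deposited estimated counts for each gene, which kallisto made with build mm10, per the submitters' processing notes. Its version, its annotation and how transcripts were summed to genes are not stated in the labels or notes used here. The estimated counts were rounded to whole numbers before testing.

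Each table was fitted by itself with edgeR 4.0.16 in R 4.3.3: filterByExpr with a minimum count of 10, TMM scaling, robust quasi-likelihood test, two-sided, and Benjamini-Hochberg adjusted p under 0.05 over all genes tested. The groups of a table shared 1 estimate of the spread. SE is the size of a change over the root of its F statistic. The procedure was run on counts simulated from its own fits, with planted changes larger than most of those reported here. How it behaves at smaller changes was not tested in this way. Members, lists and tests were chosen with earlier results of these data known.

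Named by rule were up to 6 called members of a comparison with the smallest p, plus Sqstm1, Map1lc3b, Gabarapl1 and Ulk1 where called. Named too were the first 2 members where none was called and the first 5 of the further autophagy genes. The called members have a value for every library, or range and median in the table with Ndrg1, except Atg16l2 and Atg3 between day 3 and day 7. Many of the others have only a change. Other members named, such as the uncalled ATG8 genes and Nbr1 at P12, were chosen after their values were seen.

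Other settings tried were a replicate block, each library left out, the compared groups alone, RLE scaling, no filter on low counts, DESeq2 1.42.0 and, for the Fig4 tables, a skeletal muscle covariate (log2 CPM, prior count 2). The same covariate in the other tables, library size alone as scaling, leaving out muscle-rich libraries, and leaving out both P4 libraries that stood apart were chosen after seeing the data. Pairing by replicate number was checked by correlating deviations from group means: every same-numbered pair was above 0.1 only in the DhhCre table (0.1193 to 0.2994) and the Egr2Cre Mitf table (0.1232 to 0.3395), as a hint from the data. Replicates were distinct, with a chi-square of at least 9.607 per degree of freedom between any 2 of a group.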

Additional observations from a re-analysis of the deposited data

Results flagged for a closer look

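Called members named by rule were examined, in groups of 4 to 10 libraries, for a library that stood apart. The measure was the gap to its nearest neighbour over the range of the group. With no called member in the DhhCre table, such groups came only from the injury table and the table with Ndrg1. The first 2 members of a comparison without a call were not added. Chance flags about 1 in 20 groups, and 5 of 56 were flagged. Tax1bp1 in uninjured Mitf replicate 4 was 192.2 CPM, with the other 3 libraries between 223.7 and 228.5. Gabarapl1 in Control replicate 2 was 265.7 CPM, with the other 5 between 221 and 235.1. Ndrg1 replicate 3, which had the lowest depth of its table at 16114499 estimated counts, gave the other 3: Tax1bp1 was 154.3 CPM (others 131.3 to 136.4), Sqstm1 was 134.1 CPM (others 153.4 to 158.2) and Ulk2 was 126.6 CPM (others 89.28 to 100). Whether depth bears on these values was not tested.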

How the results depend on the processing

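Counts of called members are given here as they moved by over 1.5 times. DESeq2 gave 4 for Fig4 at P12, 2 for wild type day 14 against day 7, 5 for Mutant day 14 against day 7, 6 for Mutant against wild type at day 14, and 2 for each of Mitf-Ndrg1 against Ndrg1 and the interaction of both labels. A muscle covariate gave 0 for Fig4 at P12, 1 for injury, 5 and 3 for day 7 against day 3 in wild type and Mutant, and 0 for day 14 against day 7 in either. In day 7 against day 3 it ended 6 of the wild type calls and 5 of the Mutant calls. Muscle content differed with genotype at P12, with injury and between day 3 and day 7, so that fit cannot separate them. Without the low-count filter the counts were 0 for wild type day 14 against day 7 and 2 for Mutant day 7 against day 3. Library size alone gave 0 for day 14 against day 7 in either genotype and for the genotypes at day 14, 3 for Mutant day 7 against day 3 and 2 for Mitf-Ndrg1 against Ndrg1. Leaving out muscle-rich libraries gave 0, 1 and 0 for wild type and Mutant day 14 against day 7 and for the genotypes at day 14, and the compared groups alone gave 0 for each of these and 18 for Mutant day 7 against day 3. Under library size alone Ulk1 in Mitf-Ndrg1 against Mitf reversed, to 0.0259. The replicate block gave 7 for injury and left the other 19 counts within 1.5 times, with 0 members in the DhhCre and Egr2Cre Mitf tables, and it ended the calls of Atg101, Pik3c3, Uvrag, Atg4d and Gabarap in injury, of Atg2a and Atg3 in day 7 against day 3 in wild type and Mutant, and of Atg2b at day 14. Leaving out both P4 libraries that stood apart left that count at 0. RLE scaling moved no count by that much. Library size alone shifted the median of all genes to 0.162 for Fig4 at P12, to -0.291 for wild type day 14 against day 7, to 0.255 for the genotypes at day 14 and to 0.241 for the interaction with day 14. The cause was not tested.

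With each library left out, the counts ranged from 0 to 3 for Fig4 at P12, 6 to 14 for injury, 7 to 9 and 1 to 5 for day 7 against day 3 in wild type and Mutant, 0 and 1 to 14 for day 14 against day 7, 0 to 17 for the genotypes at day 14, 26 to 29 for Ndrg1 against Control, 22 to 26 for Mitf-Ndrg1 against Mitf and 0 to 2 for Mitf-Ndrg1 against Ndrg1, and stayed at 0 in the rest. Of 42 single-gene values, 41 kept direction and call under RLE scaling, 42 under DESeq2, 40 with the block, 36 without the filter, 30 under library size alone, 23 with the muscle covariate and 28 with every single library left out in turn. With the compared groups alone 29 of 34 did, and without muscle-rich libraries 1 of 5. Groups of 3 libraries and totals of 15438783 to 34531474 estimated counts limit what could be detected: the SE of a member's change reached 0.488 for Fig4 at P12, 0.427 at P4, 0.39 for a single comparison of the time course and 0.548 for its interactions.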
